A study of Caenorhabditis elegans with 16 samples.

Results

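The pals genes are a family of Caenorhabditis elegans genes that were chosen here by name: every gene of the count table whose symbol in the Ensembl annotation of WBcel235 begins with pals- and a number. This gave 38 genes of 21882 in the table, all of them annotated as protein coding. The study measured messenger RNA of whole nematodes of the wild-type strain N2 Bristol, grown on NGM plates at 20 °C, and its design text asks which genes respond to fasting in young but not in aged animals. The 4 groups were day 8 (D8, labelled old) animals fasted for 6 h, day 8 animals fed ad lib, young adults (YA) fasted for 6 h and young adults fed ad lib, with 4 libraries each. The labels number the libraries 1 to 4 in a group without naming separate cultures, so a p-value below measures only the spread between libraries, which may be technical.

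Proteins of the pals family share a divergent sequence signature and have no known biochemical activity, and the family is much larger in C. elegans than in related nematodes. Many members are among the genes of the intracellular pathogen response, a transcriptional program switched on in the intestine and epidermis by microsporidia, by Orsay virus and by block of the proteasome. A few members control that program: pals-22 represses it and its neighbour pals-25 activates it, while pals-17 represses it and pals-16 and pals-20 activate it. The promoter of pals-5 is widely used as the reporter of the response.

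Library totals were 65.2 to 75.4 M counts in day 8 fasted, 80.7 to 117.7 M in day 8 fed, 58.4 to 78.4 M in young fasted and 76.9 to 90.4 M in young fed animals (M, counts in units of 1e6). Levels below are CPM, counts per 1e6 counts after scaling by TMM factors. In a principal component analysis of all genes, day 8 and young libraries parted along component 1 (77.7% of the variance) and fasted and fed young adults along component 2 (9.4%). Component 3 (5.07%) set day 8 libraries 1 and 2 of both feeding states apart from day 8 libraries 3 and 4, so results at day 8 are also given for each of these pairs where a call depends on the pair. The well codes in the sample names place young and day 8 libraries in different plate columns, so an effect of the column cannot be told apart from that of age. At both ages they place fed libraries in plate rows A to D and fasted libraries in rows E to H. An effect of the plate row therefore cannot be told apart from that of fasting. A difference in a whole-animal library may be fewer cells of a type or less RNA per cell, and these cannot be told apart.

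The 38 genes lie on 4 chromosomes, and 33 of them stand in 6 clusters in which each member is within 20 kb of the next. The largest cluster, of 14 genes including pals-5, covers 61303 bp of chromosome I, between positions 13083321 and 13144623. Chromosome III holds the regulators. The pair pals-22 and pals-25 lies with pals-24 and pals-23 between positions 120435 and 137975, and pals-17, pals-16 and pals-20 lie with pals-18, pals-19, pals-21 and pals-40 between positions 1376945 and 1406263. Another cluster on chromosome III holds pals-26, pals-27 and pals-28 between positions 4375154 and 4387757. Chromosome IV has pals-29 and pals-30 between positions 14539685 and 14551970, and chromosome V has pals-37, pals-39 and pals-38 between positions 12437440 and 12446995. The other 5 genes, pals-1 on chromosome I and pals-31, pals-32, pals-33 and pals-34 on chromosome V, stand alone.

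For 13 of the 38 genes an annotated exon overlaps another gene, which makes their counts less certain, since how reads were shared between genes is not given in the sources used here. The exons of pals-12 lie almost wholly inside those of pals-3 on the same strand, over 1185 bp, so the split between these 2 genes is uncertain. Overlaps with a gene on the other strand concern pals-20 (502 bp with Y82E9BR.5), pals-32 (195 bp with str-46), pals-37 (925 bp with the antisense RNA gene anr-30), pals-3 and pals-4 (11 bp with each other) and pals-5 (21 bp with a piRNA gene), and whether counting used strand is not stated. Near-identical stretches among family members may also have been split between copies.

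As a family, the pals genes were highest at day 8, lower in fasted young adults and lowest in fed young adults. Summed over the 38 genes, the level was 74.5, 78.3, 113 and 97.0 CPM in the day 8 fasted libraries 1 to 4, and 61.9, 101, 95.4 and 111 CPM in the day 8 fed libraries. It was 53.6, 55.0, 53.2 and 53.2 CPM in the young fasted libraries, and 26.1, 26.7, 25 and 26.1 CPM in the young fed libraries. The 2 day 8 groups overlapped, every day 8 library lay above every young library, and every fasted young library lay above every fed young one. Between 22 and 25 members reached 1 CPM in a day 8 fasted library, 18 to 24 in a day 8 fed library, 12 to 15 in a young fasted library and 10 to 12 in a young fed library. These sums describe the family and were not tested.

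**Figure D1:**
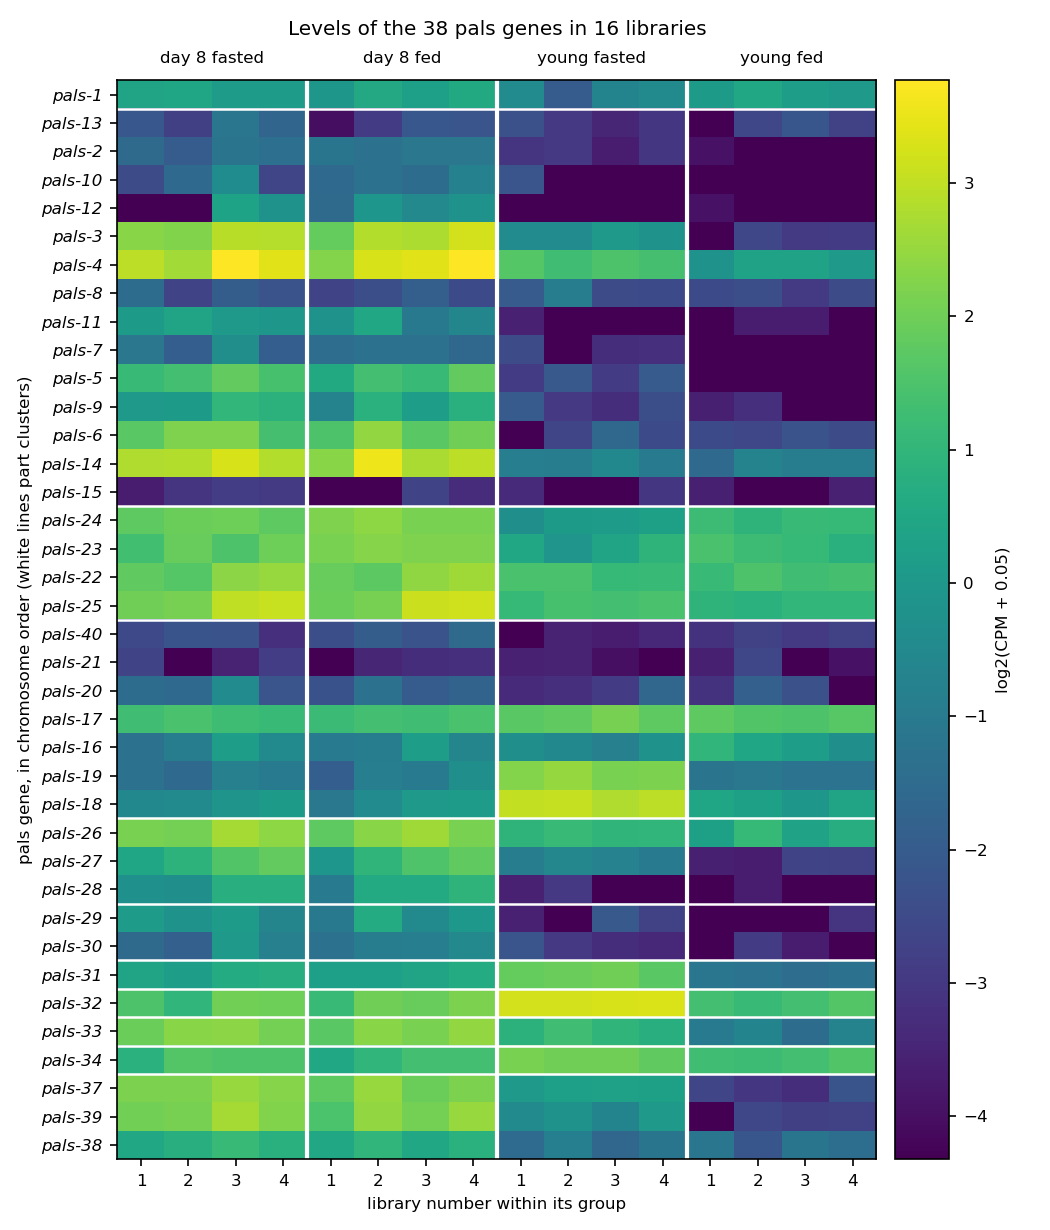
Level of each of the 38 pals genes (rows, in chromosome order, with white lines between clusters) in each of the 16 libraries (columns), coloured by log2 of CPM plus 0.05. Most rows are brightest in the 8 day 8 libraries, whereas pals-18, pals-19, pals-31, pals-32 and pals-34 are brightest in the 4 libraries of fasted young adults.

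Different members led in different groups. Per kb of exon, the most abundant member was pals-4 at day 8, with 7.87 ± 2.61 CPM per kb in fasted and 7.98 ± 3.05 CPM per kb in fed animals (SD, n = 4 each), followed in both by pals-14, pals-25 and pals-22. In fasted young adults pals-32 led with 7.47 ± 0.224 CPM per kb, followed by pals-34, pals-19 and pals-17 (SD, n = 4). In fed young adults the repressor pals-17 led with 3.5 ± 0.247 CPM per kb, followed by pals-34 and the repressor pals-22 (SD, n = 4). Of the 38 genes, 14 had their highest mean level in day 8 fasted, 16 in day 8 fed, 7 in young fasted and 1, pals-16, in young fed animals. The members pals-15 and pals-21 stayed at or under 0.115 CPM in every library and were not tested, which leaves 36. Of these, 6 (pals-2, pals-7, pals-11, pals-12, pals-28 and pals-40) passed the filter limit of 0.13 CPM (before TMM scaling) in no young library, so they entered the tests through day 8 alone. The members pals-5, pals-6, pals-8, pals-9, pals-10, pals-13, pals-20, pals-29 and pals-30 were over this limit in only 1 or 2 young libraries. They too passed the filter only with day 8 libraries.

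Fasting in young adults came with higher levels of 15 of the 36 tested pals genes and lower levels of 4 (edgeR's quasi-likelihood test, adjusted p under 0.05). Over all 17844 tested genes, 21.2% were called higher and 21.1% lower. The median log2 fold change, fasted over fed, was 1.14 for the 36 pals genes and 0.03 for all genes. With members that had at most 3 counts in a group set at their bound or counting ratio, and pals-12 left out because neither group had more than 3 counts, the median was 1.32. The genes called higher were pals-2, pals-3, pals-4, pals-5, pals-7 and pals-9 of the large cluster, the adjacent pair pals-18 and pals-19, pals-27, pals-37, pals-39 and all 4 of the solitary genes of chromosome V.

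The largest rises among well-detected members were those of pals-19, pals-37, pals-31, pals-18, pals-33 and pals-32. The neighbours pals-19 and pals-18, which overlap by 53 bp on the same strand, both rose. For pals-19 the level was 4.74, 5.61, 4.37 and 4.47 CPM in fasted young libraries, against 0.384, 0.418, 0.378 and 0.377 CPM in fed young libraries. All fasted libraries were more than 4 CPM and all fed ones under 1 CPM, a log2 fold change of 3.62 ± 0.31 (SE, edgeR adjusted p = 1.14e-07). For pals-18 the level was 8.19, 8.2, 7.02 and 7.69 CPM in fasted, against 1.33, 1.15, 0.919 and 1.26 CPM in fed young libraries. The groups did not overlap, and the log2 fold change was 2.74 ± 0.25 (SE, edgeR adjusted p = 2.87e-07).

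The solitary genes pals-31, pals-32 and pals-33 rose as well. The level of pals-31 was 3.56, 3.76, 3.96 and 3.22 CPM in fasted, against 0.400, 0.375, 0.324 and 0.361 CPM in fed young libraries, a log2 fold change of 3.31 ± 0.18 (SE, edgeR adjusted p = 6.38e-10). The level of pals-32 was 9.35, 9.32, 9.64 and 9.93 CPM in fasted, against 2.49, 2.20, 2.53 and 2.99 CPM in fed young libraries, a log2 fold change of 1.90 ± 0.24 (SE, edgeR adjusted p = 9.24e-06). For each of these genes every fasted library was higher than every fed one, and pals-32 became the most abundant member of the family. The level of pals-33 was 1.78, 2.4, 1.93 and 1.65 CPM in fasted, against 0.448, 0.576, 0.311 and 0.558 CPM in fed young libraries, a log2 fold change of 2.03 ± 0.23 (SE, edgeR adjusted p = 2.6e-06). The level of pals-37 was 0.958, 1.13, 1.19 and 1.15 CPM in fasted, against 0.112, 0.0720, 0.0540 and 0.164 CPM in fed young libraries, a log2 fold change of 3.47 ± 0.28 (SE, edgeR adjusted p = 5.4e-08). Both also separated fully by feeding state, and pals-39, the neighbour of pals-37, had a log2 fold change of 3.27 ± 0.45 (SE, edgeR adjusted p = 2.51e-05).

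**Figure D2:**
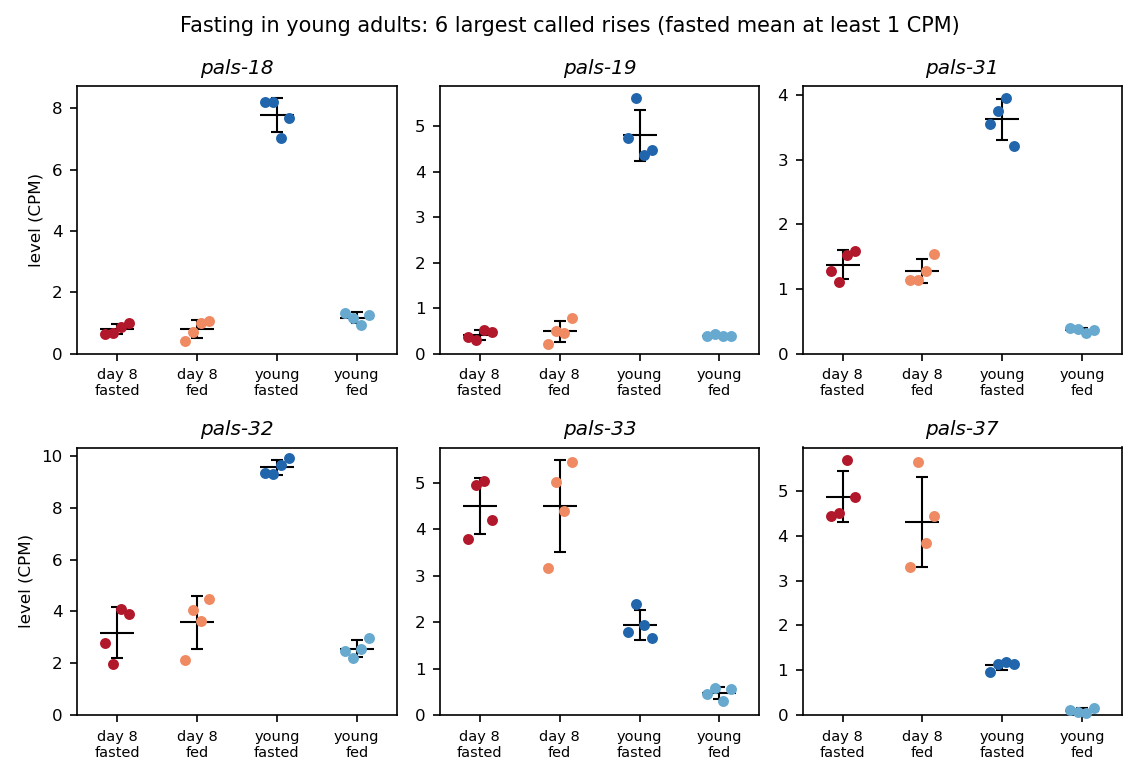
Level in CPM of the 6 pals genes with the largest called rises in fasted young adults among those with a mean of at least 1 CPM there. Points are libraries, the long line is the mean and the bars are 1 SD (n = 4 per group). For all 6 the fasted young libraries lie above the fed young ones, and pals-18, pals-19, pals-31 and pals-32 are higher in fasted young adults than in any other group.

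The reporter gene pals-5 had 0 counts in all 4 fed young libraries and 35 counts over the fasted young ones, where its level was 0.0840, 0.189, 0.0814 and 0.199 CPM. It was called higher (edgeR adjusted p = 0.000106). Set against a floor of 3 counts over the fed group, its level was at least 12.1-fold higher in fasted young adults. That level remained low: the fasted young mean of 0.138 ± 0.0642 CPM was far under the day 8 means given below (SD, n = 4). The floors given here allow for counting error only in the group without counts, and keep the observed count of the other group. The counting intervals cover counting error only. By the same floor, pals-7 was at least 5.55-fold higher in fasted young adults, with 16 counts against 0. Fasted young library 2 had no counts of pals-7, so its feeding groups overlapped. For pals-2, with 15 counts in fasted against 1 in fed young adults, the ratio was 15.6 with an exact 95% counting interval of 2.4 to 657.

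None of the 5 members that control the intracellular pathogen response was called with fasting in young adults. The repressor pals-22 was at 2.69, 2.70, 2.09 and 2.14 CPM in fasted, against 2.14, 2.79, 2.38 and 2.56 CPM in fed young libraries, with a log2 fold change of -0.04 ± 0.23 (SE, edgeR adjusted p = 0.908). Its antagonist pals-25 was at 2.08, 2.61, 2.51 and 2.69 CPM in fasted, against 1.89, 1.73, 2.00 and 2.00 CPM in fed young libraries. These pals-25 groups did not overlap, but the log2 fold change of 0.38 ± 0.30 was not called with the spread of all 16 libraries (SE, edgeR adjusted p = 0.329). With the 8 young libraries alone it was called higher, at 0.40 ± 0.13 (SE, edgeR adjusted p = 0.0126). The repressor pals-17 was at 3.19, 3.40, 4.23 and 3.38 CPM in fasted, against 3.31, 2.92, 2.82 and 3.12 CPM in fed young libraries, overlapping groups with a log2 fold change of 0.22 ± 0.13 (SE, edgeR adjusted p = 0.171).

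For the activator pals-16 the level was 0.773, 0.643, 0.529 and 0.851 CPM in fasted, against 1.95, 1.33, 1.12 and 0.771 CPM in fed young libraries, a log2 fold change of -0.88 ± 0.37 (SE, edgeR adjusted p = 0.0685). Only the lowest fed library fell within the fasted range. Without that library, fed young library 4, pals-16 was called lower (log2 fold change -1.06, edgeR adjusted p = 0.0454), and so it was with the 8 young libraries alone (-0.87 ± 0.27, SE, edgeR adjusted p = 0.00912). For the other activator, pals-20, the level was 0.0504, 0.0567, 0.0814 and 0.269 CPM in fasted, against 0.0639, 0.230, 0.149 and 0.00 CPM in fed young libraries, with a log2 fold change of 0.05 ± 0.77 (SE, edgeR adjusted p = 0.965).

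The 4 genes called lower in fasted young adults were pals-24, pals-1, pals-23 and pals-40. For pals-24 the level was 0.773, 1.02, 1.07 and 1.15 CPM in fasted, against 2.3, 1.86, 2.19 and 2.07 CPM in fed young libraries, a log2 fold change of -1.06 ± 0.15 (SE, edgeR adjusted p = 2.56e-05). For pals-1 it was 0.706, 0.208, 0.584 and 0.667 CPM in fasted, against 1.01, 1.35, 1.09 and 0.968 CPM in fed young libraries, a log2 fold change of -1.02 ± 0.29 (SE, edgeR adjusted p = 0.0104). In both the groups did not overlap. For pals-23, which sits beside pals-24, it was 1.41, 0.888, 1.26 and 1.87 CPM in fasted, against 2.67, 2.3, 2.07 and 1.72 CPM in fed young libraries, a log2 fold change of -0.68 ± 0.21 (SE, edgeR adjusted p = 0.0179).

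Some of the calls in young adults rest on single libraries. That of pals-23 was lost without fasted library 2 or fed library 1 (edgeR adjusted p = 0.0568 and 0.0634). That of pals-34 was lost without fasted library 1, fed library 1 or fed library 2 (edgeR adjusted p = 0.0547, 0.0552 and 0.0595). The call of pals-9 was lost without fasted library 1 or 4 or fed library 3 or 4 (edgeR adjusted p = 0.0632 to 0.0894). That of pals-40 was lost without fasted library 1, 2 or 3 or fed library 2, 3 or 4 (edgeR adjusted p = 0.0549 to 0.0861). Beside the call of pals-16 given above, calls of higher levels were gained by pals-29 without fasted library 2 or fed library 4 (edgeR adjusted p = 0.0403 and 0.0161) and by pals-30 without fed library 2 (edgeR adjusted p = 0.0339).

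At day 8, none of the 36 pals genes was called higher or lower with fasting (edgeR's quasi-likelihood test, adjusted p under 0.05), and DESeq2 likewise called 0 in either direction. Before adjustment, 2 genes had a p under 0.05, both of them with lower levels in fasted animals (0 with higher levels). Over all genes, 0.151% were called higher and 0.219% lower, 66 of 17844 in all. That number depended on the day 8 libraries: it was 328 of 17708 with libraries 1 and 2 alone, 1612 of 18462 with libraries 3 and 4 alone and 838 of 17844 with a term for the pair. The median log2 fold change was -0.01 both for the pals genes and for all genes, and the values ran from -0.69 for pals-40 to 1.01 for pals-13. The 2 genes with an unadjusted p under 0.05 were pals-24 (log2 fold change -0.37 ± 0.14, SE, edgeR adjusted p = 0.646) and pals-23 (-0.53 ± 0.21, SE, edgeR adjusted p = 0.680). For pals-24 every day 8 fasted library, at 3.33, 3.78, 3.90 and 3.32 CPM, was lower than every day 8 fed one, at 4.52, 5.27, 4.33 and 4.34 CPM. The same held for pals-23, at 2.45, 3.63, 2.80 and 3.88 CPM in day 8 fasted, against 4.37, 4.93, 4.60 and 4.59 CPM in day 8 fed libraries. Its log2 fold change with fasting in young adults was -0.68 ± 0.21 (SE).

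The members that rose with fasting in young adults were among those not called at day 8. The level of pals-19 was 0.368, 0.287, 0.523 and 0.470 CPM in day 8 fasted, against 0.215, 0.498, 0.450 and 0.773 CPM in day 8 fed libraries, a log2 fold change of -0.24 ± 0.29 (SE, edgeR adjusted p = 1.00). The level of pals-18 was 0.641, 0.669, 0.859 and 1.01 CPM in day 8 fasted, against 0.418, 0.701, 1.00 and 1.05 CPM in day 8 fed libraries (log2 fold change -0.01 ± 0.24, SE). For pals-31 it was 1.28, 1.11, 1.53 and 1.58 CPM in day 8 fasted, against 1.14, 1.14, 1.28 and 1.54 CPM in day 8 fed libraries (log2 fold change 0.11 ± 0.16, SE). In all 3 genes the feeding groups overlapped at day 8 and stood below the fasted young libraries. The reporter pals-5 was at 2.19, 2.51, 3.46 and 2.62 CPM in day 8 fasted, against 1.46, 2.53, 2.19 and 3.47 CPM in day 8 fed libraries, again overlapping (log2 fold change 0.16 ± 0.30, SE, edgeR adjusted p = 1.00).

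The regulators overlapped between the feeding states at day 8 too. Log2 fold changes, fasted over fed, were -0.09 ± 0.23 for pals-22, -0.07 ± 0.29 for pals-25, -0.04 ± 0.13 for pals-17, -0.02 ± 0.37 for pals-16 and 0.58 ± 0.66 for pals-20 (SE, edgeR adjusted p = 1.00 for each). With day 8 libraries 1 and 2 alone, 1 gene was called lower with fasting: pals-12, at 0.00 and 0.00 CPM in the fasted against 0.299 and 0.904 CPM in the fed libraries of that pair (edgeR adjusted p = 0.0147). Its exons lie within pals-3, for which the same fasted libraries had 4.99 and 4.70 CPM against 3.54 and 7.17 CPM in the fed ones. With day 8 libraries 3 and 4 alone the count was 0 in both directions.

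**Figure D3:**
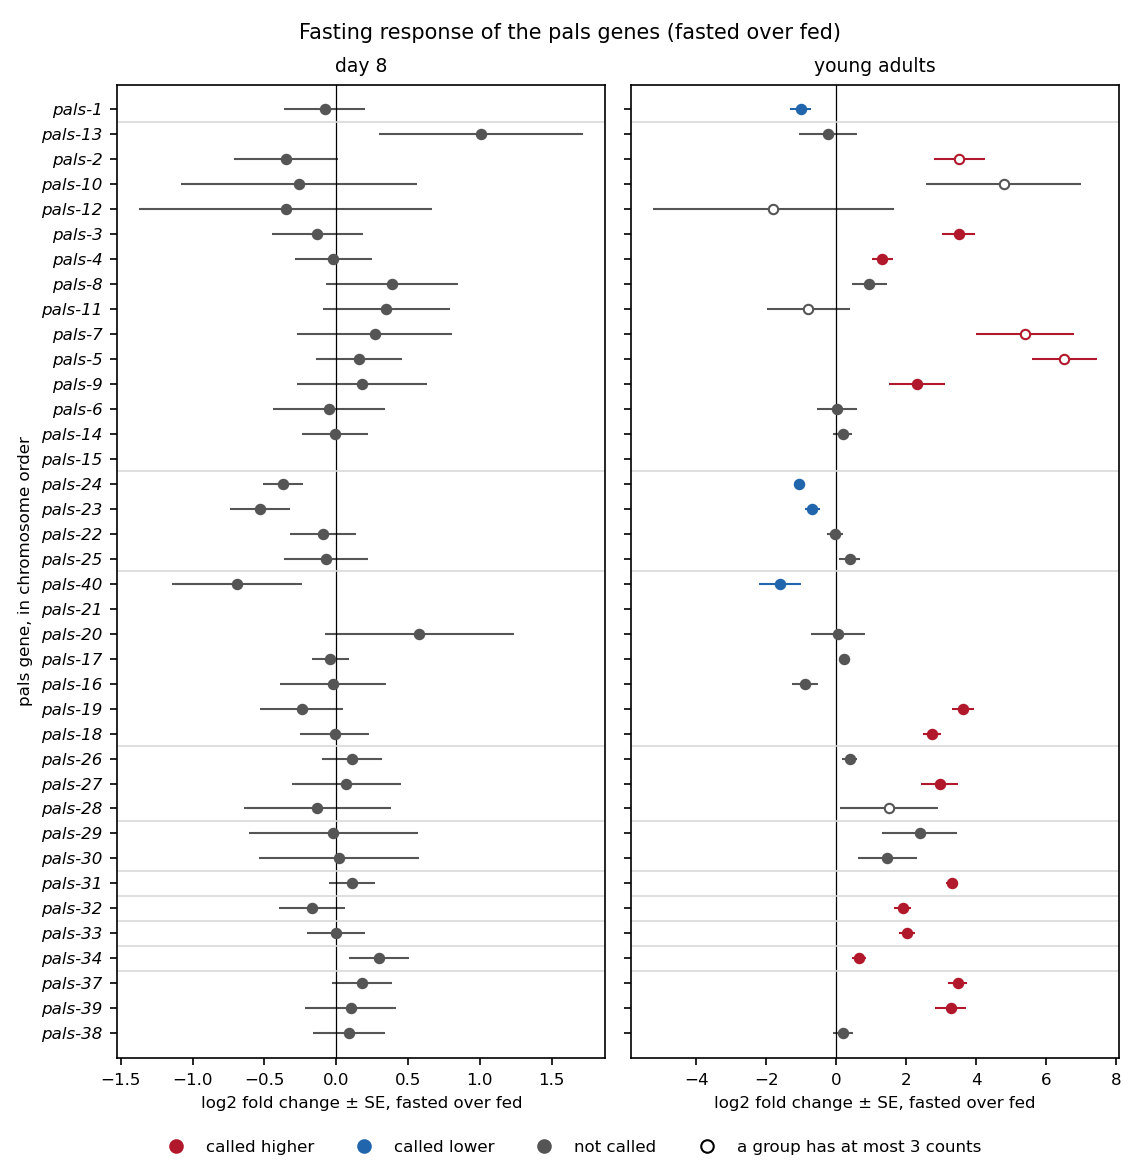
Log2 fold change with fasting (fasted over fed, ± SE) of each pals gene at day 8 (left) and in young adults (right), with different horizontal scales. Colours mark genes called at an edgeR adjusted p under 0.05, and open points mark genes with at most 3 counts in one of the groups, whose fitted value is no measure of size. Of the 36 tested genes, none is called at day 8, and 15 are called higher and 4 lower in young adults; pals-15 and pals-21 were not tested.

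The difference between the fasting responses was tested directly, as the day 8 response minus the young response. It was called below 0 for 13 pals genes and above 0 for 1, against 13.4% and 12.6% of all tested genes. The median difference was -0.95 log2 units for the pals genes, a value that includes fitted values of genes with at most 3 counts in a group, and -0.03 for all genes. The 13 genes were pals-2, pals-3, pals-4, pals-5, pals-7, pals-18, pals-19, pals-27, pals-31, pals-32, pals-33, pals-37 and pals-39. Among members with countable levels in every group, the largest differences were -3.86 ± 0.41 for pals-19, -3.63 ± 0.57 for pals-3, -3.29 ± 0.34 for pals-37, -3.20 ± 0.24 for pals-31 and -3.18 ± 0.56 for pals-39 (log2, SE, edgeR adjusted p at most 0.000482). For pals-5, which had no counts in fed young adults, the difference was called (edgeR adjusted p = 0.000527) but its size has no fixed value.

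The single gene with a difference above 0 was pals-24, at 0.70 ± 0.20 log2 units (SE, edgeR adjusted p = 0.0173), whose log2 fold change with fasting was -0.37 at day 8 and -1.06 in young adults. With day 8 libraries 1 and 2 alone this call was lost (0.57, edgeR adjusted p = 0.0578). The calls of 2 other genes depended on 1 library. That of pals-4 was lost without day 8 fed library 4 or young fed library 1 (edgeR adjusted p = 0.0556 and 0.0507), and that of pals-7 without young fasted library 1 (edgeR adjusted p = 0.0545). The call of pals-7 was also lost with day 8 libraries 3 and 4 alone (edgeR adjusted p = 0.0562). Differences were gained below 0 by pals-29 without young fed library 4 and by pals-9 without young fed library 2 (edgeR adjusted p = 0.0347 and 0.0489). None of the regulators was called: the difference was -0.05 ± 0.32 for pals-22, -0.45 ± 0.42 for pals-25, -0.26 ± 0.18 for pals-17, 0.87 ± 0.53 for pals-16 and 0.53 ± 1.02 for pals-20 (log2, SE, edgeR adjusted p from 0.247 to 0.924). With day 8 libraries 3 and 4 alone, pals-25 was called, at -0.51 ± 0.17, and so was pals-34, at -0.51 ± 0.19 (log2, SE, edgeR adjusted p = 0.0225 and 0.0437).

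More members were called with age than with fasting. In fed animals, 26 of the 36 tested pals genes were higher at day 8 than in young adults and 2 were lower, against 30.8% higher and 34.7% lower among all tested genes. The median log2 fold change, day 8 over young, was 2.74 for the pals genes, also with the genes of at most 3 counts at their bound or ratio, and -0.01 for all genes. In fasted animals 26 were higher and 6 lower, against 31.2% higher and 36.9% lower among all genes, with a median of 1.98 for the pals genes and -0.05 for all genes. Of the tested members, 6 had entered through day 8 alone. Also pals-5, pals-6, pals-8, pals-9, pals-10, pals-13, pals-20, pals-29 and pals-30 had passed the filter only with day 8 libraries. These counts and medians therefore describe the members and are not a test of the family. The comparisons in fed and in fasted animals share no libraries, but both compare the same ages and plate columns. In both, 25 genes were higher, 96.2% of those higher in fasted and 96.2% of those higher in fed animals. The exceptions were pals-1, higher in fasted animals only, and pals-31, higher in fed animals only. The matching share over all tested genes was not computed, so this overlap is not a result particular to the family.

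The largest cluster, that of chromosome I, held many of the genes that were higher at day 8. Its 14 members together had 28.5, 28.5, 45.3 and 34.8 CPM in day 8 fasted and 20.3, 41.8, 33.2 and 42.8 CPM in day 8 fed libraries, against 5.35, 4.59, 5.09 and 4.69 CPM in young fasted and 1.49, 2.36, 2.22 and 1.97 CPM in young fed libraries. Of its 13 tested members, 11 were higher at day 8 in fasted animals and 11 in fed animals, with none lower. The exceptions were pals-8 and pals-13, with log2 fold changes of 0.32 ± 0.48 and 0.22 ± 0.76 in fed animals (SE, edgeR adjusted p = 0.578 and 0.813). Over all tested genes, 31.2% were higher and 36.9% lower in fasted animals, and 30.8% and 34.7% in fed animals. Of the tested cluster members, only pals-3, pals-4 and pals-14 were over the filter limit in 4 or more young libraries. The rest passed the filter only with day 8 libraries, so these counts are not a test of the cluster.

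In that cluster pals-5 had 1164 counts over the day 8 fed libraries and 0 over the young fed ones, at least 222-fold higher at day 8 by the floor of 3 counts. In fasted animals, where both ages had counts, its log2 fold change was 4.28 ± 0.37 (SE, edgeR adjusted p = 3.35e-07). For pals-3 the level was 3.54, 7.17, 6.82 and 9.29 CPM in day 8 fed, against 0.00, 0.115, 0.0810 and 0.0821 CPM in young fed libraries, a log2 fold change of 6.54 ± 0.46 (SE, edgeR adjusted p = 5.89e-09). These groups were far apart, with the highest young library under 1 CPM. For pals-14 the level was 6.96, 7.15, 9.69 and 7.08 CPM in day 8 fasted, against 0.504, 0.472, 0.638 and 0.440 CPM in young fasted libraries, a log2 fold change of 3.90 ± 0.27 (SE, edgeR adjusted p = 4.51e-09). These groups did not overlap either. For pals-6 it was 3.20, 4.61, 4.58 and 2.54 CPM in day 8 fasted, against 0.00, 0.113, 0.285 and 0.128 CPM in young fasted libraries, a log2 fold change of 4.76 ± 0.50 (SE, edgeR adjusted p = 4.45e-07). Neither of these 2 genes was called with fasting in young adults, where their log2 fold changes were 0.18 ± 0.28 and 0.02 ± 0.56 (SE, edgeR adjusted p = 0.624 and 0.984).

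Others of the cluster started from very few counts in young adults. For pals-9 the level was 0.562, 1.73, 1.08 and 1.70 CPM in day 8 fed, against 0.0320, 0.0576, 0.00 and 0.00 CPM in young fed libraries, a log2 fold change of 5.73 ± 0.68 (SE, edgeR adjusted p = 1.94e-06). For pals-11 it was 1.01, 1.27, 0.959 and 0.920 CPM in day 8 fasted libraries, with 336 counts against 2 in young fasted ones, a ratio of 132 with an exact 95% counting interval of 36.2 to 1093. Every day 8 library of both genes lay above every young one. For pals-12 there were 185 counts in day 8 fasted and 0 in young fasted libraries, at least 48.4-fold higher at day 8, but all 185 came from libraries 3 and 4. Without libraries 3 and 4 its call in fasted animals was lost. In the same cluster pals-13, not called with all libraries, was called higher in fasted animals with libraries 3 and 4 alone (log2 fold change 2.04 ± 0.70, SE, edgeR adjusted p = 0.0163). For pals-10 the call in fasted animals was lost with libraries 1 and 2 alone (edgeR adjusted p = 0.0737), without day 8 fasted library 3 or young fasted library 2, 3 or 4 (edgeR adjusted p = 0.0604 to 0.0977), and with the library number as a block (edgeR adjusted p = 0.0513).

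Clusters on chromosomes III, IV and V were higher at day 8 as well. The 3 genes pals-37, pals-39 and pals-38 were higher in both feeding states. The level of pals-37 was 3.31, 5.64, 3.83 and 4.44 CPM in day 8 fed, against 0.112, 0.0720, 0.0540 and 0.164 CPM in young fed libraries, a log2 fold change of 5.43 ± 0.28 (SE, edgeR adjusted p = 1.36e-10). The level of pals-39 was 2.73, 5.39, 4.18 and 5.74 CPM in day 8 fed, against 0.00, 0.115, 0.0946 and 0.0985 CPM in young fed libraries, a log2 fold change of 5.82 ± 0.45 (SE, edgeR adjusted p = 1.42e-08). Both were also higher with fasting in young adults, a comparison that shares the young fed libraries with this one. In pals-28 there were 659 counts in day 8 fed against 2 in young fed animals, a ratio of 189 with an exact 95% counting interval of 52.1 to 1563. In fasted animals pals-28 had 0.790, 0.765, 1.67 and 1.63 CPM at day 8, against 0.0336, 0.0756, 0.00 and 0.00 CPM in young adults, a log2 fold change of 5.57 ± 0.77 (SE, edgeR adjusted p = 9.89e-06). In fed animals the day 8 level of pals-28 was 0.442, 1.49, 1.5 and 1.86 CPM, and a single young fed library had any, at 0.0288 CPM. The neighbouring pals-27 and pals-26 were higher in fasted animals as well, with log2 fold changes of 2.17 ± 0.42 and 1.35 ± 0.22 (SE, edgeR adjusted p = 0.00026 and 4.81e-05). In the chromosome IV pair, pals-29 and pals-30 had log2 fold changes of 5.74 ± 0.90 and 4.02 ± 0.75 in fed animals (SE, edgeR adjusted p = 3.98e-05 and 0.000199). A single young fed library had any counts of pals-29, at 0.0656 CPM. In fasted animals the call of pals-30 was lost with day 8 libraries 1 and 2 alone (1.64 ± 0.73, SE, edgeR adjusted p = 0.051).

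The regulatory pair pals-22 and pals-25 was higher at day 8 in both feeding states. The level of pals-22 was 3.39, 3.04, 5.05 and 5.67 CPM in day 8 fasted and 3.66, 3.26, 5.28 and 6.11 CPM in day 8 fed libraries, every one of them higher than the young libraries given above. Its log2 fold change was 0.84 ± 0.23 in fasted and 0.89 ± 0.23 in fed animals (SE, edgeR adjusted p = 0.00458 and 0.00297). The level of pals-25 was 3.98, 4.23, 7.87 and 8.55 CPM in day 8 fasted and 3.79, 4.30, 8.59 and 9.15 CPM in day 8 fed libraries, also higher than every young library. Its log2 fold change was 1.32 ± 0.30 in fasted and 1.76 ± 0.30 in fed animals (SE, edgeR adjusted p = 0.00114 and 0.000101). Libraries 3 and 4 held the higher values of both genes in both feeding states. With day 8 libraries 1 and 2 alone the log2 fold change in fed animals was 0.50 ± 0.16 for pals-22 and 1.10 ± 0.14 for pals-25, and with libraries 3 and 4 alone 1.31 ± 0.14 and 2.32 ± 0.11 (SE). In fasted animals these values were 0.41 ± 0.16 and 0.72 ± 0.14 with libraries 1 and 2, and 1.25 ± 0.15 and 1.82 ± 0.11 with libraries 3 and 4 (SE). All 8 were called (edgeR adjusted p at most 0.0265). The other genes of this cluster, pals-24 and pals-23, were higher too, with log2 fold changes of 1.83 ± 0.15 and 1.23 ± 0.21 in fasted and of 1.13 ± 0.14 and 1.08 ± 0.21 in fed animals (SE, edgeR adjusted p at most 0.000314).

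Of the regulators of the other cluster, pals-17 was lower at day 8 in both feeding states, pals-16 was lower in fed animals and pals-20 was not called. The repressor pals-17 was at 2.37, 2.65, 2.35 and 2.16 CPM in day 8 fasted, each lower than every fasted young library, with a log2 fold change of -0.58 ± 0.13 (SE, edgeR adjusted p = 0.000926). In fed animals it was at 2.22, 2.48, 2.42 and 2.67 CPM at day 8, each lower than every fed young library, with a log2 fold change of -0.31 ± 0.13 (SE, edgeR adjusted p = 0.0412). The call in fed animals was fragile: it was lost with DESeq2 (adjusted p = 0.172), with the library number as a block (edgeR adjusted p = 0.058), with day 8 libraries 3 and 4 alone (0.314), and without day 8 fasted library 3 or 4, any of the 4 day 8 fed libraries or young fed library 1, 2 or 4 (edgeR adjusted p = 0.053 to 0.127).

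The activator pals-16 was at 0.466, 0.478, 1.08 and 0.594 CPM in day 8 fed libraries, a log2 fold change of -0.97 ± 0.37 against young fed animals (SE, edgeR adjusted p = 0.0301). This call was lost with day 8 libraries 3 and 4 alone (edgeR adjusted p = 0.197) and without day 8 fasted library 4, day 8 fed library 1, 2 or 4 or young fed library 1 or 2 (edgeR adjusted p = 0.0588 to 0.129). In fasted animals pals-16 was at 0.368, 0.492, 1.08 and 0.660 CPM at day 8, overlapping the young fasted libraries (log2 fold change -0.10 ± 0.38, SE, edgeR adjusted p = 0.826). The activator pals-20 was at 0.313, 0.287, 0.697 and 0.170 CPM in day 8 fasted and 0.155, 0.366, 0.208 and 0.245 CPM in day 8 fed libraries. It was not called, with log2 fold changes of 1.63 ± 0.72 in fasted and 1.10 ± 0.72 in fed animals (SE, edgeR adjusted p = 0.0557 and 0.191). It was called higher in fasted animals without day 8 fasted library 4, young fasted library 4 or young fed library 4 (edgeR adjusted p = 0.0371, 0.014 and 0.0263), and also with RLE scaling (0.0435), with only the 8 libraries compared (0.0428), with day 8 libraries 3 and 4 alone (0.0468) and with DESeq2 (adjusted p = 0.0264).

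**Figure D4:**
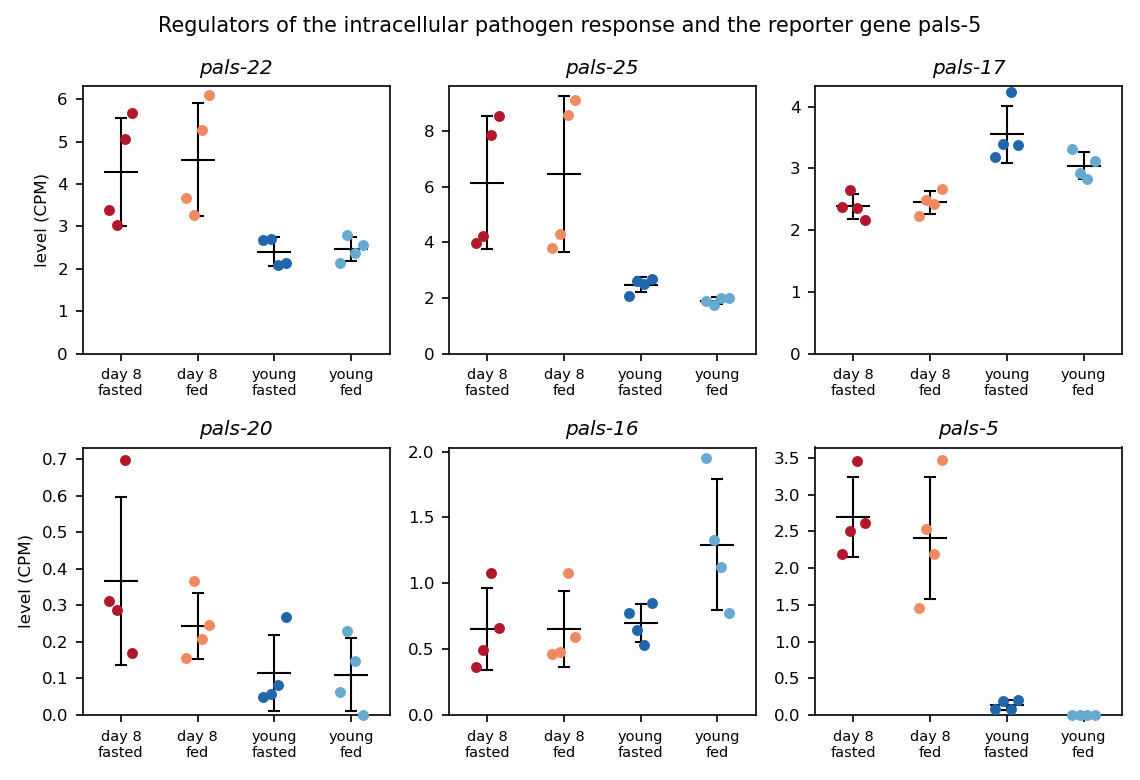
Level in CPM of the 5 pals genes with a known regulatory role in the intracellular pathogen response and of the reporter gene pals-5. Points are libraries, the long line is the mean and the bars are 1 SD (n = 4 per group). The day 8 levels of pals-22, pals-25 and pals-5 lie above all young libraries, those of pals-17 lie below the young libraries of the same feeding state, and pals-20 overlaps between all groups.

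There were 6 members that were lower at day 8 than in young adults when both were fasted: pals-19, pals-18, pals-32, pals-31, pals-34 and pals-17. Apart from pals-17 they were all called higher with fasting in young adults, and the young fasted libraries enter both comparisons. The log2 fold change at day 8 over young in fasted animals was -3.53 ± 0.30 for pals-19, against 0.33 ± 0.29 in fed animals (SE, edgeR adjusted p = 4.02e-08 and 0.346). For pals-18 it was -3.28 ± 0.26 in fasted and -0.54 ± 0.24 in fed animals (SE, edgeR adjusted p = 1.45e-08 and 0.0632). Neither was called in fed animals with all libraries, but pals-18 was called lower there with day 8 libraries 1 and 2 alone (-1.02, edgeR adjusted p = 0.000463) and pals-19 higher with libraries 3 and 4 alone (0.74, edgeR adjusted p = 0.00814).

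For pals-32 the log2 fold change was -1.59 ± 0.23 in fasted and 0.49 ± 0.23 in fed animals (SE, edgeR adjusted p = 1.96e-05 and 0.0765), and the value in fed animals was called higher without day 8 fed library 1 or day 8 fasted library 2 (edgeR adjusted p = 0.012 and 0.0412), with RLE scaling (0.0365) and with DESeq2 (adjusted p = 0.0248). With day 8 libraries 3 and 4 alone it was 0.77 ± 0.12 and called higher (SE, edgeR adjusted p = 3.31e-05). For pals-34 it was -0.61 ± 0.21 in fasted and -0.27 ± 0.21 in fed animals (SE, edgeR adjusted p = 0.0151 and 0.261). In fed animals pals-34 was called lower with day 8 libraries 1 and 2 alone, at -0.59 ± 0.22, and with the term for libraries 3 and 4, at -0.51 ± 0.19 (SE, edgeR adjusted p = 0.0224 and 0.0202). In a comparison of ages that term refers the day 8 level to libraries 1 and 2, so these settings are not separate evidence. Of the 36 tested members, only pals-31 was called in opposite directions, at -1.40 ± 0.16 in fasted and 1.80 ± 0.17 in fed animals (SE, edgeR adjusted p = 1.22e-06 and 1.76e-07). Its day 8 libraries, from 1.11 to 1.58 CPM, lay between the young fasted and the young fed libraries. The remaining weak call was that of pals-40 in fed animals (1.23 ± 0.47, SE, edgeR adjusted p = 0.0311), which was lost without day 8 fed library 2 or 4, without young fed library 1, 3 or 4 (edgeR adjusted p = 0.0509 to 0.0848) and with day 8 libraries 1 and 2 alone (0.123).

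**Figure D5:**
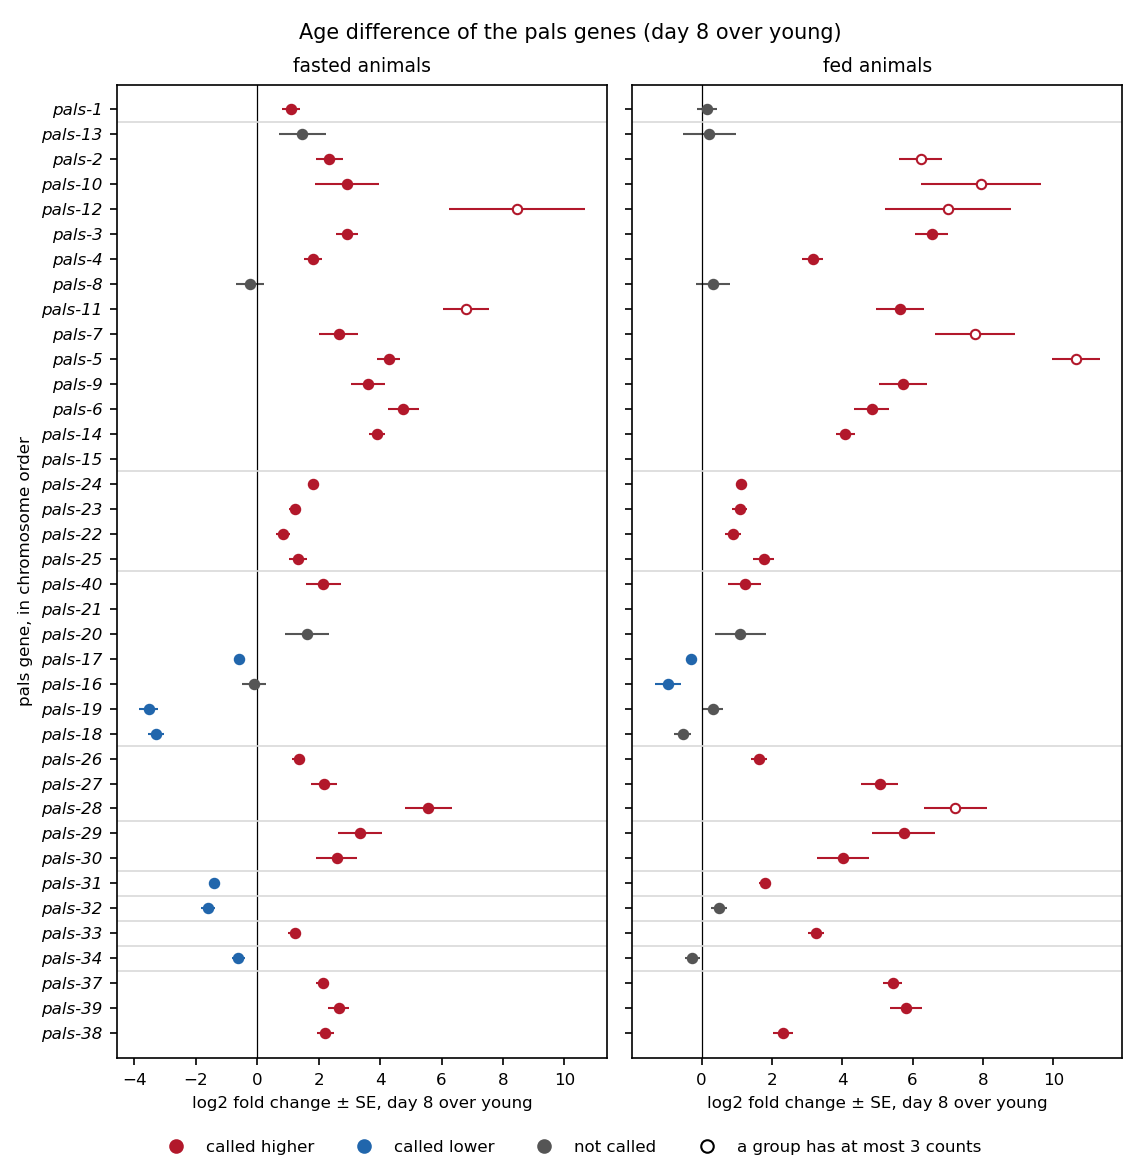
Log2 fold change with age (day 8 over young, ± SE) of each pals gene in fasted (left) and fed (right) animals. Colours mark genes called at an edgeR adjusted p under 0.05, and open points mark genes with at most 3 counts in one of the groups, whose fitted value is no measure of size. In each panel 26 of the 36 tested genes are called higher; 6 are called lower in fasted and 2 in fed animals.

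Markers of tissues also differed with age, and their part in these results was not tested. All 5 intestinal markers (elt-2, ges-1, vit-2, vit-6 and asp-1) were lower at day 8 in both feeding states. Their summed level ranged over 16795 to 24494 CPM in day 8 fasted and 16234 to 32075 CPM in day 8 fed libraries, against 59139 to 61149 CPM in young fasted and 64865 to 67236 CPM in young fed libraries. The 3 body muscle markers were all lower at day 8 in both states, with 337 to 738 CPM over all day 8 libraries and 8340 to 10722 CPM over all young ones. Of 4 epidermal markers 3 were lower and 1 higher at day 8 in both states, with sums of 18.2 to 44.6 CPM at day 8 and 1994 to 2916 CPM in young adults. The 5 sperm markers found were all lower at day 8, with sums of 1.17 to 5.44 CPM at day 8 and 156 to 273 CPM in young adults. Of 4 neuronal markers 2 were higher and 2 lower at day 8 in both states, with 188 to 212 CPM at day 8 and 149 to 154 CPM in young adults. Among 8 germ line markers, 3 were higher and 1 lower at day 8 in fasted animals, and 0 higher and 2 lower in fed animals. Their sum was 4799, 4903, 2863 and 2856 CPM in day 8 fasted libraries 1 to 4 and 5180, 4732, 3226 and 3096 CPM in day 8 fed ones, against 3232 to 3270 CPM in young fasted and 4634 to 4852 CPM in young fed libraries. Day 8 libraries 3 and 4 thus lay below libraries 1 and 2 in both feeding states, the same pairs between which levels of pals-22 and pals-25 differed, and the part of the germ line in that was not tested. Early embryo markers, 5 of 6 tested, were higher for 3 in fasted and 2 in fed animals, with sums of 18.7 to 27.2 CPM at day 8 and 6.48 to 9.64 CPM in young adults. The marker med-1 had no counts in young fasted libraries. Most of the intestinal sum came from vit-2 and vit-6, most of the muscle sum from unc-54 and most of the neuronal sum from snb-1. In young adults most of the epidermal sum came from col-19 and most of the early embryo sum from pha-4.

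Except for the germ line list, fewer markers of each list were called with fasting in young adults than with age. Of the germ line markers 5 of 8 were lower (3232 to 3270 CPM in fasted, against 4634 to 4852 CPM in fed young libraries), and 2 of 5 sperm markers were higher (sums of 270 ± 2.26 CPM in fasted, against 157 ± 1.18 CPM in fed young libraries, SD, n = 4 each). Of the other lists, 1 intestinal marker of 5 was higher, 1 epidermal marker of 4 and 1 neuronal marker of 4 were lower, and none of the muscle or early embryo markers was called. Their part in the young fasting response of the pals genes was not tested. At day 8 no marker of any of the 7 lists was called with fasting.

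The other genes of the intracellular pathogen response were read beside the family, in a list of 12 that are not pals genes. With fasting in young adults, 5 were higher and 1 lower, 41.7% and 8.33% of the list against 21.2% and 21.1% of all genes. The median log2 fold change of the 12 was 0.94. Among them skr-5 and skr-4, Skp1-related parts of the CUL-6 ubiquitin ligase of this response, had log2 fold changes of 3.22 ± 0.31 and 0.80 ± 0.13 (SE, edgeR adjusted p = 5.2e-07 and 0.000139). The F-box gene fbxa-158, which belongs to the same ligase, was at 0.101, 0.227, 0.0814 and 0.184 CPM in fasted young libraries and had no counts in fed ones (edgeR adjusted p = 0.000324). The ring finger gene rcs-1, another part of it, was lower, with a log2 fold change of -0.71 ± 0.10 (SE, edgeR adjusted p = 3.23e-05). The cullin cul-6 itself was not called, at -0.22 ± 0.28 (SE, edgeR adjusted p = 0.554). At day 8, 0 of the 12 were called with fasting. The difference between the responses was below 0 for skr-5, skr-4 and fbxa-158 and above 0 for rcs-1; it was -2.93 ± 0.41 for skr-5, -0.69 ± 0.18 for skr-4 and 0.55 ± 0.14 for rcs-1 (log2, SE, edgeR adjusted p = 5.42e-05, 0.0111 and 0.00876).

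With age, 8 of the 12 were higher and 2 lower in fasted animals, and 9 higher and 1 lower in fed animals. Over all tested genes, 31.2% were higher and 36.9% lower in fasted animals, and 30.8% and 34.7% in fed animals. Median log2 fold changes of the 12 were 1.72 in fasted and 2.64 in fed animals, against -0.05 and -0.01 for all genes. The exonuclease-like gene eol-1 was at 9.13, 20.1, 17.5 and 21.3 CPM in day 8 fed, against 0.288, 0.317, 0.716 and 0.0985 CPM in young fed libraries, a log2 fold change of 5.55 ± 0.45 (SE, edgeR adjusted p = 2.49e-08). In fasted animals its log2 fold change was 4.11 ± 0.41 (SE, edgeR adjusted p = 2.32e-07). The genes F26F2.1 and F26F2.3, known for their induction by microsporidia, had log2 fold changes of 2.87 ± 0.33 and 4.28 ± 0.36 in fasted animals and of 3.10 ± 0.34 and 4.39 ± 0.38 in fed animals (SE, edgeR adjusted p at most 1.22e-06). Their neighbour F26F2.4 had 0.695, 0.642, 1.79 and 0.930 CPM in day 8 fasted, against 0.00, 0.00, 0.0271 and 0.00 CPM in young fasted libraries. For fbxa-158 the day 8 fed libraries had 0.490, 1.13, 0.819 and 1.03 CPM, against no counts in young fed ones (edgeR adjusted p = 1.21e-06).

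Regulators outside the family included 2 repressors that rose with fasting in young adults. The purine nucleoside phosphorylase gene pnp-1, a repressor of the response, was at 201, 189, 195 and 195 CPM in fasted, against 54.1, 50.9, 55.3 and 58.9 CPM in fed young libraries, a log2 fold change of 1.83 ± 0.06 (SE, edgeR adjusted p = 4.27e-12). The STAT-like repressor gene sta-1 had a log2 fold change of 1.07 ± 0.16 (SE, edgeR adjusted p = 6.4e-05). The bZIP factor gene zip-1, which acts in the response, was higher at 0.39 ± 0.13, and the viral RNA sensor gene drh-1 was at -0.20 ± 0.11 and not called (SE, edgeR adjusted p = 0.0215 and 0.139). At day 8 none of the 4 was called with fasting, with log2 fold changes from -0.06 to 0.08. The difference between the responses was called for pnp-1 and sta-1, at -1.87 ± 0.09 and -0.99 ± 0.23 (log2, SE, edgeR adjusted p = 3.9e-10 and 0.00401). It was not called for zip-1 or drh-1, at -0.45 ± 0.18 and 0.14 ± 0.15 (log2, SE, edgeR adjusted p = 0.0767 and 0.534). At day 8 over young in fasted animals, pnp-1, sta-1 and zip-1 were lower, at -2.31 ± 0.06, -0.69 ± 0.16 and -0.47 ± 0.13, and drh-1 was higher, at 0.32 ± 0.11 (log2 fold change, SE, edgeR adjusted p at most 0.0138). In fed animals only pnp-1 was called, at -0.45 ± 0.06 (SE, edgeR adjusted p = 1.09e-05).

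The chitinase-like chil genes, of which chil-27 is known to be induced by oomycetes, formed a further list of 26, with 24 tested. With fasting in young adults 7 were higher and 1 lower, 29.2% and 4.17% of those tested against 21.2% and 21.1% of all genes. The median log2 fold change of the list was 0.70. The genes chil-24, chil-22, chil-23 and chil-12 had log2 fold changes of 0.92 ± 0.11, 2.3 ± 0.29, 2.49 ± 0.37 and 0.73 ± 0.16 (SE, edgeR adjusted p = 5.4e-06, 1.14e-05, 6.3e-05 and 0.00154). At day 8, 0 were called with fasting, and the difference between the responses was below 0 for 4 and above 0 for none. Those 4 were 16.7% of the genes tested, near the 13.4% of all genes. With age, 3 were higher and 12 lower in fasted animals, 12.5% and 50.0% of those tested against 31.2% and 36.9% of all genes. In fed animals 5 were higher and 9 lower, 20.8% and 37.5% against 30.8% and 34.7% of all genes, so that the share of lower genes was near that of all genes. Median log2 fold changes were -0.54 in fasted and -0.28 in fed animals. The gene with the smallest adjusted p in fasted animals, chil-22, was at 1.14, 1.06, 0.660 and 0.660 CPM in day 8 fasted, against 14.1, 14.1, 15.7 and 12.8 CPM in young fasted libraries, a log2 fold change of -4.01 ± 0.32 (SE, edgeR adjusted p = 1.76e-08). The chil and pals families were not tested against each other.

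Another list of 9 protein-coding genes outside the family was chosen by position, of which 7 were tested. These genes lie wholly within a cluster, and the pair pals-29 and pals-30 was not searched. With fasting in young adults 1 was higher and 2 lower, 14.3% and 28.6% of those tested against 21.2% and 21.1% of all genes. The F-box gene fbxa-138 had a log2 fold change of 1.78 ± 0.32, and C29F9.2 one of -2.27 ± 0.35 (SE, edgeR adjusted p = 0.000302 and 8.5e-05). At day 8, 0 were called with fasting. With age, 4 were higher and 2 lower in fasted animals, and 1 higher and 3 lower in fed animals. In fasted animals these were 57.1% and 28.6% of those tested, against 31.2% and 36.9% of all genes. In fed animals they were 14.3% and 42.9%, against 30.8% and 34.7% of all genes. Among the 7 tested, Y82E9BR.5, whose exons overlap those of pals-20 on the other strand, was lower at day 8, with log2 fold changes of -2.12 ± 0.18 in fasted and -2.17 ± 0.18 in fed animals (SE, edgeR adjusted p = 3.83e-08 and 3.18e-08).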

How the data were processed

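As deposited by the authors, the table holds expected counts (estimated counts per gene that are not whole numbers and were not scaled between libraries) from polyA RNA-seq of whole animals, and these were rounded here. The submitters' processing notes name WBcel235 and DESeq; for the aligner, the counter and the use of strand, the sources used here give nothing. Gene names came from the Ensembl annotation of WBcel235, which holds 21714 of the 21882 gene IDs.

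With edgeR 4.0.16 under R 4.3.3, genes with low counts were left out (filterByExpr, limit 0.13 CPM), libraries were scaled by TMM, and all 16 libraries were fitted together with a mean per group. Quasi-likelihood tests were Benjamini-Hochberg adjusted over 17844 genes, a call was an adjusted p under 0.05, and the SE is the log2 fold change divided by the square root of F. This was tested on simulated data. Where a group had at most 3 counts, a floor of 3 counts over the group or an exact 95% interval replaced the fitted fold change. Depth was 58.4 to 117.7 M counts.

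Named with a value in every library were pals-5, pals-16, pals-17, pals-20, pals-22 and pals-25 and, per comparison, up to 6 of the largest called rises and 6 of the largest called falls among members whose mean in the higher group was 1 CPM or more. Other genes were named from lists of genes of the intracellular pathogen response, its regulators, the chil family and tissue markers, and the list of genes between members was added later. The members and lists were chosen with earlier results of these data known. Promoters and protein sequences were not analysed here, nor was the gene pals-36.

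Alternatives were RLE scaling, DESeq2 1.42.0, no filter, the library number as a block, only the 8 libraries compared, a term for day 8 libraries 3 and 4, counts divided by 2, each library left out in turn, and, chosen after seeing the data, day 8 libraries 1 and 2 or 3 and 4 alone and the block within day 8. The pairing was checked from deviations from group means. Same-numbered day 8 fasted and fed libraries correlated with r of 0.329 to 0.564. Within libraries 1 and 2 and within libraries 3 and 4, those of different number correlated with r of 0.359 to 0.666. The check thus cannot tell a pairing by number from the split of libraries 1 and 2 from 3 and 4. In young adults same-numbered libraries correlated with r of -0.00458 to 0.0399.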

Additional observations from a re-analysis of the deposited data

Results flagged for a closer look

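In groups of 4 libraries, a library was singled out where its gap to the nearest other was most of the group's range, past Dixon's 95% critical value. For normally distributed values, chance alone passes this limit in about 1 in 20 groups, and 38 genes in 4 groups were examined. There were 10 such cases. The highest day 8 fasted library of pals-14 had 9.69 CPM, with the others at 6.96 to 7.15 CPM. The lowest day 8 fasted library of pals-34 had 1.73 CPM, with the others at 2.79 to 2.98 CPM. The highest young fasted library of pals-20 had 0.269 CPM, with the others at 0.0504 to 0.0814 CPM, and the highest young fed library of pals-19 had 0.418 CPM, with the others at 0.377 to 0.384 CPM. The other 6 had counts in a single library of the group, so their gap equalled the whole range at any count. The rate of 1 in 20 does not apply to these 6. In young fasted libraries these were pals-10, at 0.168 CPM, and pals-11, at 0.0336 CPM. In young fed libraries they were pals-29, at 0.0656 CPM, pals-28, at 0.0288 CPM, and pals-2 and pals-12, at 0.016 CPM each.

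The fasting response differed between the ages by a test of the difference itself for the members with the largest such differences. Day 8 minus young, on the log2 scale, it was -3.86 for pals-19, -3.63 for pals-3, -3.29 for pals-37, -3.20 for pals-31, -3.18 for pals-39 and 0.70 for pals-24. For pals-5 the fitted value was -6.35, which rests on 0 counts in fed young adults and is no bound on the size of the difference.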

How the results depend on the processing

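No called value of a pals gene named by the rule changed direction under any alternative run. Of the values for named genes under alternatives, 1447 stayed on their side of the threshold, 18 became called and 27 lost their call. Counts that moved by more than 1.5 times were small ones. In fed animals 2 members, pals-16 and pals-17, were lower at day 8. Their number became 0 with RLE scaling, with no filter and with day 8 libraries 3 and 4 alone. It was 1 with DESeq2, with the replicate block and with only the 8 libraries compared. It was 4 with the term for day 8 libraries 3 and 4 and with day 8 libraries 1 and 2 alone. Both of these settings refer the day 8 level to libraries 1 and 2, so they are not separate evidence. Leaving out single libraries gave 0 to 2. The 1 member whose difference between the fasting responses was above 0 became 2 with DESeq2 and with that term, and 0 with day 8 libraries 1 and 2 alone. The count lower with fasting at day 8 went to 1 with day 8 libraries 1 and 2 alone. The 4 members lower with fasting in young adults became 2 to 4 when single libraries were left out, and the 15 higher became 13 to 16. Causes of these changes were not tested. Beside the count above, the replicate block ended the calls of pals-17 in fed animals and of pals-10 in fasted animals and changed no other call; with the block within the day 8 libraries alone, 0 members were called with fasting. RLE scaling moved the median of all genes by 0.113 (log2) in the comparison of ages in fed animals. Depth limits what can be said of pals-2, pals-5, pals-7, pals-10, pals-11, pals-12 and pals-28 in young adults, which had at most 3 summed counts in a young group.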
